A study of Arabidopsis thaliana with 14 samples.

Results

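The peripheral endosperm was compared with the general seed coat of young Arabidopsis thaliana seeds, the pair of tissues that face each other along the side of the seed. The members of the comparison were the arrays that the labels assign to these groups, 2 of the peripheral endosperm and 2 of the general seed coat, so 4 of the 14 arrays of the study, and all 22746 probe sets that are not array controls. Of these, 17336 passed the filter on dim signals and were tested. Both groups came from seeds of Ws-0 plants aged 38 to 46 days, grown at 20 °C in continuous light, with siliques of 1.0 to 1.1 cm and an embryo proper of 2 to 8 cells. The labels name no mutant, transgene or treatment for either group. After fixation (ethanol with acetic acid) and embedding in paraffin, each tissue was cut out of sections with a laser. The RNA, 2 to 5 ng per sample, was amplified and, once biotin had been added as a label, measured on ATH1 arrays. The titles call the first tissue peripheral endosperm, whereas its source label calls it cellularized endosperm. The other groups of the study were the embryo proper, the micropylar and chalazal endosperm, the chalazal seed coat and the whole seed, with 2 arrays each. The labels name biological replicates but do not tie them to plants, so the p-values measure the spread between these samples.

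The endosperm is the product of the second fertilization in the embryo sac and carries both parental genomes. It nourishes the embryo, and in Arabidopsis it first grows as a syncytium and then forms cells. The seed coat develops from the integuments of the ovule and is wholly maternal tissue. Its inner layer makes proanthocyanidins, the tannin pigments of the mature coat, and its outer layer later makes mucilage.

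Signals are given as the authors deposited them, on a linear scale, with the arrays of a group in the order of their replicate numbers. Differences are in log2(signal + 35.9), peripheral endosperm minus general seed coat, with their standard error (SE) from the fit. The added value makes differences smaller for dim genes. A probe set or gene was called higher or lower at a Benjamini-Hochberg adjusted p under 0.05 in limma together with a difference of at least 2-fold. The array medians were 127 and 110.5 in the peripheral endosperm and 146 and 147 in the general seed coat. Across all tested probe sets the replicates correlated at r = 0.924 in the peripheral endosperm and r = 0.912 in the general seed coat, whereas the means of both groups correlated at r = 0.646. The points of these correlations are probe sets of 1 genome and are no replicates of a tissue.

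The marker genes told endosperm and seed coat apart where a named probe set of sufficient signal allowed the check. AGL62, a MADS-box factor that holds back endosperm cellularization, had signals of 3678 and 5237 in the peripheral endosperm, against 35.9 and 142 in the general seed coat. DFR (dihydroflavonol reductase), which makes precursors of proanthocyanidins, had signals of 1291 and 3087 in the peripheral endosperm, against 32225 and 26570.1 in the general seed coat. Of 8 markers of the peripheral endosperm, 4 had a named probe set (AGL62, MPC, IKU1 and IKU2). Their summed signal was 9646 to 11850 in the peripheral endosperm and 465 to 544 in the general seed coat. It was 7258 to 9370 in the chalazal endosperm, so these markers did not single out the peripheral endosperm. IKU2 was dim throughout, with 3.58 and 40.3 in the peripheral endosperm and 51.1 and 2.19 in the general seed coat, and was not tested. Of 9 markers of the general seed coat, 4 had a named probe set (DFR, BAN, INO and ARA12), and their sum was 1734 to 3822 in the peripheral endosperm and 38908 to 39759 in the general seed coat. Signal from the markers of each tissue was thus also present in the arrays of the other, and its part in the results was not tested. Of the genes called higher, 62.1% had more signal in general seed coat replicate 2 than in replicate 1, against 49.1% of all genes. Of those called lower, 52.6% had more signal in peripheral endosperm replicate 2 than in replicate 1, against 47.1% of all genes. The cause was not tested. The embryo marker BBM was at 7.60 and 11.4 in the peripheral endosperm and 6.52 and 66.7 in the general seed coat, against a mean of 630.5 in the embryo proper. RR22 and SWEET10, listed for the chalazal seed coat, summed to 21250.1 to 23468 there. In the general seed coat their sum was 28.0 to 199.9, and in the peripheral endosperm it was 42.6 to 230.3. Both genes were listed with earlier results of these arrays known. Their sums therefore describe the arrays and are no separate check of the labels.

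The tissues differed at 26.1% of the tested probe sets. In the peripheral endosperm 1910 probe sets (11.0% of those tested) were higher and 2611 (15.1%) were lower than in the general seed coat. Taken as genes, with 1 probe set each, 1001 of 9766 (10.2%) were higher and 1400 (14.3%) were lower, 24.6% in all. In such bulk samples fewer cells of a type and less RNA per cell cannot be told apart. The lower group held more of the large differences, since 952 probe sets were lower and 449 were higher by at least 8-fold, and 135 were lower and 59 higher by at least 32-fold. The median signal of the probe sets called higher was 1605.8 in the peripheral endosperm and 238.5 in the general seed coat. For those called lower it was 85.4 in the peripheral endosperm and 944.1 in the general seed coat. Of the probe sets called lower, 899 (34.4%) lay below the intensity limit of the filter on both peripheral endosperm arrays, while 378 (19.8%) of those called higher lay below it on both general seed coat arrays. The split between directions depended on scaling. Centring each array on its median moved the median difference of all tested probe sets to 0.22, against -0.02 as deposited, and gave 2455 higher and 2174 lower (53.0% higher, against 42.2%), while quantile normalization gave 1963 higher and 2270 lower. Without peripheral endosperm replicate 1, 1247 probe sets were called higher. Of the probe sets called higher, 956 (50.1%) were brightest in the peripheral endosperm among the 6 compartments, against 13.4% of all tested. Of those called lower, 1464 (56.1%) were brightest in the general seed coat, against 15.2% of all tested. The calls rest on the same signals, which raises both shares, so they describe the called sets and are no separate support.

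**Figure D1:**
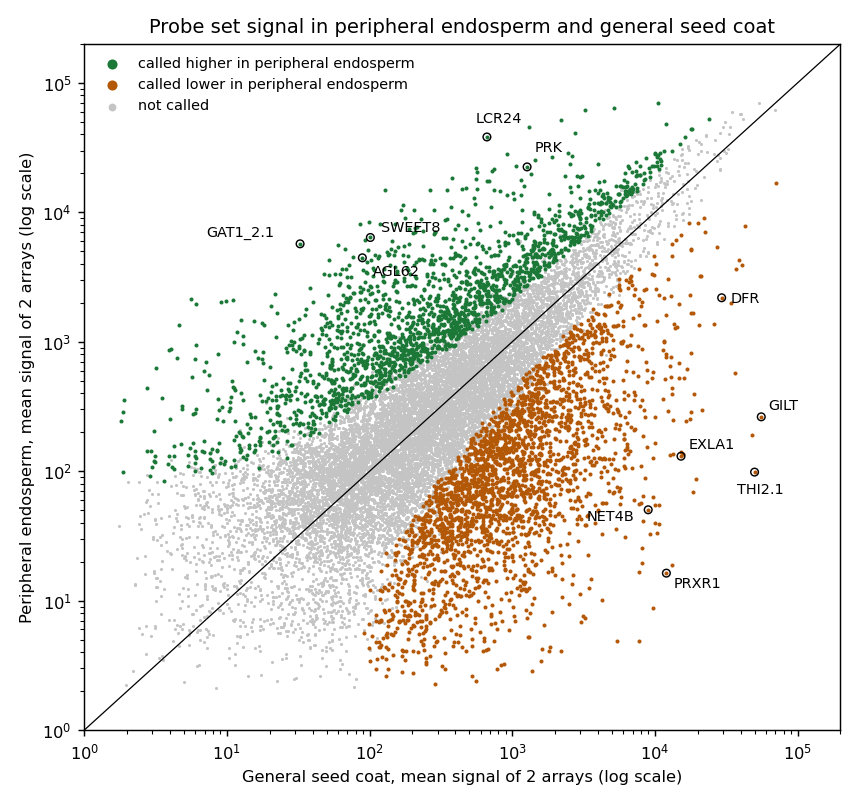
Each point is 1 tested probe set, with its mean signal over 2 general seed coat arrays on the x axis and over 2 peripheral endosperm arrays on the y axis, both on log scales, and the line marks equal signal. The 1910 probe sets called higher in the peripheral endosperm lie above the line in green and the 2611 called lower lie below it in orange, where they reach farther from the line; 11 named genes are circled.

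Among the genes with the largest increases were a peptide, a sugar transporter and enzymes of nitrogen and auxin metabolism. GAT1_2.1, a glutamine amidotransferase-like protein, had signals of 7602 and 3829.6 in the peripheral endosperm, against 4.05 and 61.1 in the general seed coat. It was higher by 6.45 (SE 0.57, adjusted p = 7.10e-08), the largest increase of any gene with 1 symbol, and by 5.81 to 7.09 when 1 array was left out, with the lowest value without general seed coat replicate 1. LCR24, a secreted cysteine-rich peptide, had signals of 39935 and 36563 in the peripheral endosperm, against 462 and 868 in the general seed coat. Its groups lay far apart, and it was higher by 5.83 (SE 0.36, adjusted p = 9.15e-10). SWEET8, a plasma membrane sugar transporter best known from pollen development, had signals of 6163 and 6633 in the peripheral endosperm, against 37.7 and 165 in the general seed coat. It was higher by 5.73 (SE 0.47, adjusted p = 3.19e-08), and by 6.45 without general seed coat replicate 2. UGT84B1, which joins glucose to the auxin indole-3-acetic acid, had 1647 and 2482 in the peripheral endosperm, against 6.02 and 13.7 in the general seed coat. RR23, a response regulator of the kind that acts in cytokinin signalling, had 2423 and 2249 in the peripheral endosperm, against 9.13 and 34.7 in the general seed coat. Both genes had coat signals near the bottom of the scale, far below their endosperm signals, and they were higher by 5.50 (SE 0.70) and 5.39 (SE 0.72). RR19, of the same family, was higher by 3.23 (SE 0.68, adjusted p = 0.00121), or from 2.20 to 4.25 when 1 array was left out, the highest without general seed coat replicate 2, with adjusted p up to 0.0492.

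Of these 5 leading genes RR23 alone had a clearly higher signal in the peripheral than in the micropylar endosperm. LCR24 had a mean signal of 81289 in the micropylar endosperm, and the difference of peripheral from micropylar endosperm was -1.06 (adjusted p = 0.0567). SWEET8 reached 23799.5 there and was lower in the peripheral than in the micropylar endosperm by 1.89 (adjusted p = 0.0113). GAT1_2.1 and UGT84B1 differed between those regions by -0.10 and -0.06. RR23 was higher in the peripheral than in the micropylar endosperm by 3.53 (adjusted p = 0.00253).

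Genes known from endosperm development formed the next group. Of 25 listed regulators and imprinted genes 7 could be named and 5 were tested. Of the tested genes 3 were higher and none was lower, against 10.2% and 14.3% of all genes. Their median was 2.23, against 0 over all tested genes. AGL62 was higher by 5.29 (SE 0.49, adjusted p = 1.28e-07), and by 4.64 to 5.94 when 1 array was left out, the lowest without general seed coat replicate 1. MPC, a maternally expressed imprinted gene, had 4653 and 5211 in the peripheral endosperm, against 101 and 164 in the general seed coat, and was higher by 4.91 (SE 0.55). IKU1, a VQ-motif protein needed for endosperm growth, had 1312 and 1363 in the peripheral endosperm, against 277 and 236 in the general seed coat. It was higher by 2.23 (adjusted p = 0.00729), a call that did not pass without general seed coat replicate 2 or without peripheral endosperm replicate 2, where the adjusted p reached 0.0529. AGL80 differed by 1.07 (95% interval -0.28 to 2.41) and SHB1, which promotes seed size, by -0.21 (-1.47 to 1.05), and neither passed.

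The type I MADS-box genes, a class best known from the female gametophyte and endosperm, had 61 listed members. Of these 25 could be named and 17 were tested, and over all genes 10.2% were higher and 14.3% lower. Of the tested members 7 were higher and none was lower, with a median of 1.37, and 4 were higher without peripheral endosperm replicate 1. AGL28 had signals of 3588 and 3684 in the peripheral endosperm, against 62.6 and 74.0 in the general seed coat, and was higher by 5.14 (SE 0.53, adjusted p = 5.27e-07). AGL46 (3.54), AGL29 (2.97), AGL96 (2.81), AGL87 (2.35) and AGL23 (2.33) followed, beside AGL62. With 1 array left out AGL87 ran from 1.43 to 3.28 and AGL23 from 1.35 to 3.31, both moved most by general seed coat replicate 2, and each was called in 1 of the 4 cases. AGL96 was higher by 2.22 without general seed coat replicate 1 and was not called without peripheral endosperm replicate 1 (adjusted p = 0.0515). AGL29 had 187 and 421 in the peripheral endosperm, against 3.86 and 5.83 in the general seed coat, so its coat signals were among the dimmest. AGL62 and AGL28 exceeded the micropylar endosperm as well, by 2.34 (adjusted p = 0.00323) and 3.61 (adjusted p = 0.000124). The mean signal of AGL62 was nevertheless higher in the chalazal endosperm, at 6160, than in the peripheral endosperm, at 4457. AGL96 had a mean of 673 in the peripheral endosperm and 13957 in the micropylar endosperm, so within this class the region of highest signal varied.

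Nuclear genes for photosynthesis were higher in the peripheral endosperm almost throughout. Photosystems I and II capture light in the thylakoid membrane, and the Calvin cycle fixes carbon in the stroma. All 7 tested nuclear genes of the photosystems and their antennae were brightest in the peripheral endosperm among the 6 compartments. Of these 6 were called higher, against 10.2% of all genes, and the median was 2.90. Over all tested probe sets 13.4% were brightest in the peripheral endosperm. PSAE-1, a stromal subunit of photosystem I, had signals of 9283 and 11060.3 in the peripheral endosperm, against 322 and 569 in the general seed coat, and was higher by 4.45 (SE 0.46, adjusted p = 4.90e-07). PSAN, a lumenal subunit of photosystem I, had 5180.3 and 3381 in the peripheral endosperm, against 325 and 252 in the general seed coat, a difference of 3.71 (SE 0.69). PSBW and PSBY, small subunits of photosystem II, were higher by 3.16 (SE 0.32) and 2.37 (SE 0.36). The antenna proteins LHCB4.1 and LHCB4.2 were higher by 2.90 and 2.66. Without general seed coat replicate 2 LHCB4.1 was higher by 3.72, while LHCB4.2 was not called (adjusted p = 0.0569), and without general seed coat replicate 1 LHCB4.2 was higher by 3.32. LHCB4.3, with 1765 and 1429 in the peripheral endosperm and 559 and 355 in the general seed coat, differed by 1.75 and was not called.

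The 3 tested Calvin cycle genes were all called higher, against 10.2% of all genes, with a median of 2.69. PRK (phosphoribulokinase) had signals of 24366 and 20550.3 in the peripheral endosperm, against 1713 and 830.3 in the general seed coat, and was higher by 4.19 (SE 0.38, adjusted p = 1.12e-07). RCA (Rubisco activase) had 1972 and 2351 in the peripheral endosperm, against 307 and 299.6 in the general seed coat, and was higher by 2.69 (SE 0.49, adjusted p = 0.000288). SBPASE (sedoheptulose bisphosphatase) was higher by 2.35 (adjusted p = 0.0108), which did not pass when either general seed coat array or peripheral endosperm replicate 1 was left out.

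Of 8 tested genes for tetrapyrroles, the ring compounds that include chlorophyll and haem, 6 were higher and none was lower (median 2.69). Over all genes 10.2% were higher and 14.3% lower. CHLM, which methylates magnesium protoporphyrin IX on the way to chlorophyll, had signals of 1648 and 1969 in the peripheral endosperm, against 135 and 123 in the general seed coat, and was higher by 3.48 (SE 0.50, adjusted p = 2.18e-05). PORB (protochlorophyllide reductase) was higher by 2.96, or 2.17 without general seed coat replicate 2, and CHLI2, a subunit of magnesium chelatase, by 2.91, although the call of CHLI2 was lost without general seed coat replicate 1 (adjusted p = 0.0592). HEME2 (2.80), HEME1 (2.58) and HEMA3 (1.79), of earlier steps, were higher too, but HEMA3 lost its call without any 1 of the 4 arrays and HEME1 without general seed coat replicate 2 or peripheral endosperm replicate 1. HEMB1, at 4353 and 3213 in the peripheral endosperm and 2439 and 1825 in the general seed coat, differed by 0.82 (adjusted p = 0.109) and HEMA2 by 0.18. Of 7 tested nuclear genes for electron carriers and the plastid ATP synthase, 5 were higher (median 2.76). These were CaS (4.34), a thylakoid calcium sensor, PAM68 (3.86), needed to assemble photosystem II, ATPC1 (3.33), the gamma subunit of the ATP synthase, TROL (2.76), which anchors ferredoxin-NADP reductase, and NTRC (2.64), a thioredoxin reductase. Without general seed coat replicate 2 PAM68 was higher by 4.46, without peripheral endosperm replicate 1 ATPC1 was higher by 2.67, and NTRC, at 1.94 without general seed coat replicate 1, was called neither there nor without peripheral endosperm replicate 2. ATPC2, a second gamma subunit gene, had 2144 and 2213 in the peripheral endosperm and 1789 and 1646 in the general seed coat, so its difference of 0.34 (95% interval -0.67 to 1.35) was small beside that of ATPC1, at 6728 and 2680.3 in the peripheral endosperm and 559 and 270.2 in the general seed coat.

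The genome of the chloroplast itself showed smaller differences over more genes. Of its 69 tested genes 47 were higher, none was lower, and 41 were brightest in the peripheral endosperm among the 6 compartments. For comparison, 10.2% of all genes were higher, and 13.4% of all tested probe sets were brightest in the peripheral endosperm. The differences of the 69 genes ran from -0.02 to 2.20 with a median of 1.22, near the 2-fold limit. The count called higher therefore moved between 32 with quantile normalization and 56 with arrays centred on their medians. The RNA polymerase subunit genes rpoB (2.20), rpoC1 (1.90) and rpoC2 (1.84) were among the highest. rpoB had signals of 8585 and 9054 in the peripheral endosperm, against 1899 and 1891 in the general seed coat (adjusted p = 3.06e-05). Of 10 genes of the NDH complex, which returns electrons to the photosystem I chain, 9 were higher, led by ndhJ at 2.14 (SE 0.40). Of 15 ribosomal protein genes 12 were higher with a median of 1.39, and of 12 ATP synthase and cytochrome genes 9 were higher with a median of 1.16. rbcL, the large subunit of Rubisco, had 43744 and 44196 in the peripheral endosperm, against 15898 and 19866 in the general seed coat, and was higher by 1.31 (SE 0.20, adjusted p = 5.44e-05). Of 20 photosystem genes in the chloroplast genome 10 were called, with a median of 1.11, and 4 with quantile normalization. psbA, of the photosystem II core, had 31494 and 30015 in the peripheral endosperm and 16270.4 and 14972 in the general seed coat, and its difference of 0.98 (adjusted p = 0.000553) passed the test but lay just under 2-fold.

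Mitochondrial genes did not share this direction. Of 16 tested, none was higher and 1 (6.2%) was lower, against 10.2% and 14.3% of all genes. The median was -0.43, in a range from -1.06 to 0.23. The gene called lower was ccb452, with 3309 and 3194 in the peripheral endosperm, against 7279 and 6346 in the general seed coat. The call was lost with arrays centred on their medians, with no trend in the variances and without general seed coat replicate 1, and 4 mitochondrial genes were called lower with quantile normalization. nad5, a subunit of respiratory complex I, had 10570.2 and 14522 in the peripheral endosperm and 21722 and 20378 in the general seed coat, a difference of -0.76 (adjusted p = 0.00719).

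**Figure D2:**
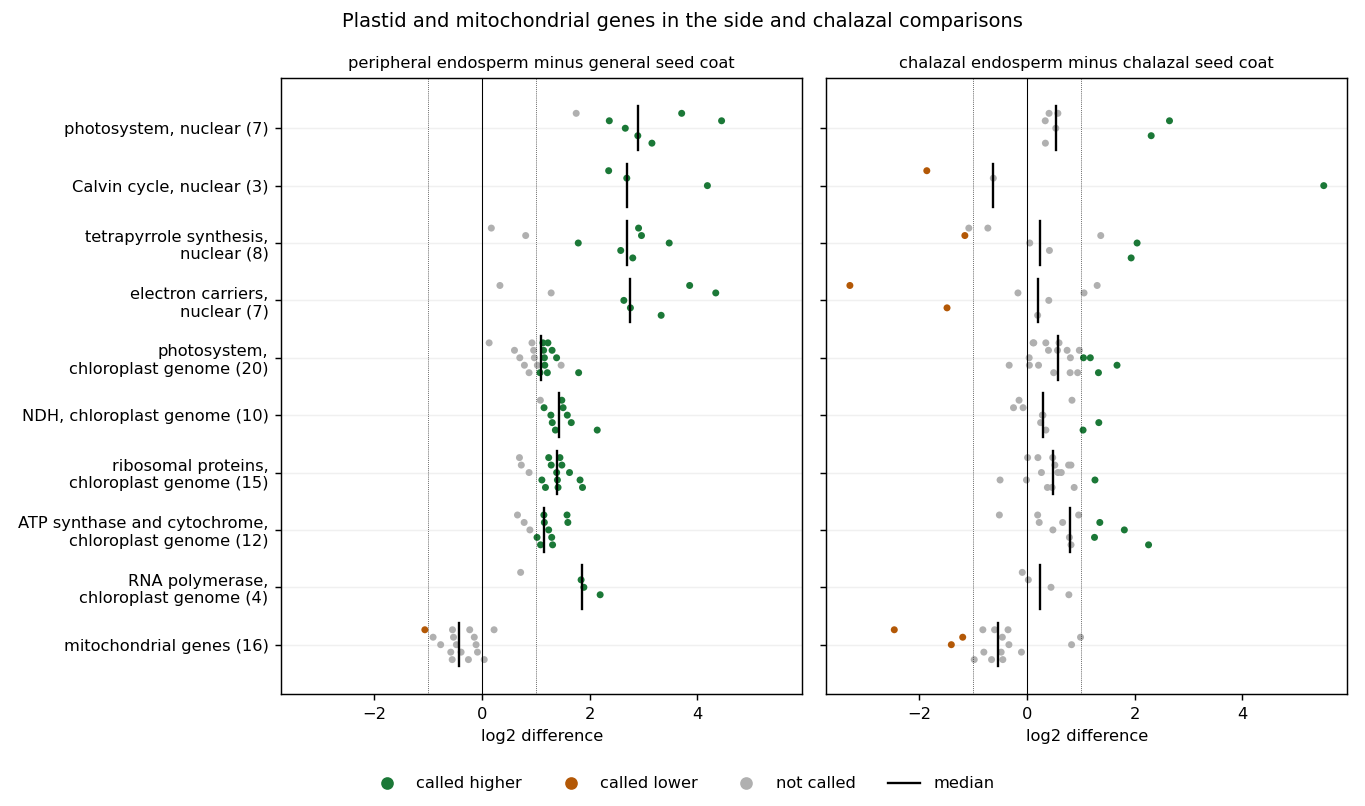
Each point is the log2 difference of 1 tested gene, for the peripheral endosperm minus the general seed coat on the left and the chalazal endosperm minus the chalazal seed coat on the right, with the number of tested genes in brackets, a black bar at the median and dotted lines at 2-fold. On the left nearly all plastid genes lie right of 0, with medians of 2.69 to 2.90 for the nuclear groups and 1.11 to 1.87 for the chloroplast groups, and the mitochondrial genes have a median of -0.43.

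The genes with the largest decreases were bright in the general seed coat, and many of them were near the bottom of the scale in the peripheral endosperm, though not GILT or 1 of the arrays of THI2.1. THI2.1, a thionin of the kind known for antimicrobial activity, had signals of 4.39 and 193 in the peripheral endosperm, against 54851 and 45158 in the general seed coat. It fell by 9.02 (SE 0.79, adjusted p = 6.32e-08), and leaving out 1 array moved the difference between -10.27 and -7.77, the first without peripheral endosperm replicate 2. PRXR1, a peroxidase, had 18.1 and 14.6 in the peripheral endosperm, against 13249 and 10839.5 in the general seed coat, and differed by -7.85 (SE 0.51, adjusted p = 2.24e-09). GILT, named for a thiol reductase of lysosomes in animals, had 272 and 255 in the peripheral endosperm, against 65611 and 45789 in the general seed coat, and differed by -7.52 (SE 0.66). In each of these genes the endosperm arrays were below 1% of the mean of the coat arrays. NET4B, an actin-binding protein, had 4.24 and 96.5 in the peripheral endosperm, against 9727 and 8234 in the general seed coat, with a difference of -6.95 that was -6.08 without peripheral endosperm replicate 1. JAL23, a jacalin-like lectin, had 7.10 and 7.51 in the peripheral endosperm, against 3019 and 3416 in the general seed coat (-6.23, SE 0.59). bZIP44, a transcription factor, had 128 and 9.39 in the peripheral endosperm, against 4942 and 5475 in the general seed coat (-5.93, SE 0.57), which leaving out peripheral endosperm replicate 2 moved 1.90-fold. Several genes in this group carry only a locus name. AT5G45670 (-7.92), AT2G43530 (-7.78), AT1G75900 (-7.21), AT1G72160 (-7.19) and AT3G43960 (-7.09) were all at 58.7 or less on each peripheral endosperm array and at 6184 or more on each general seed coat array.

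**Figure D3:**
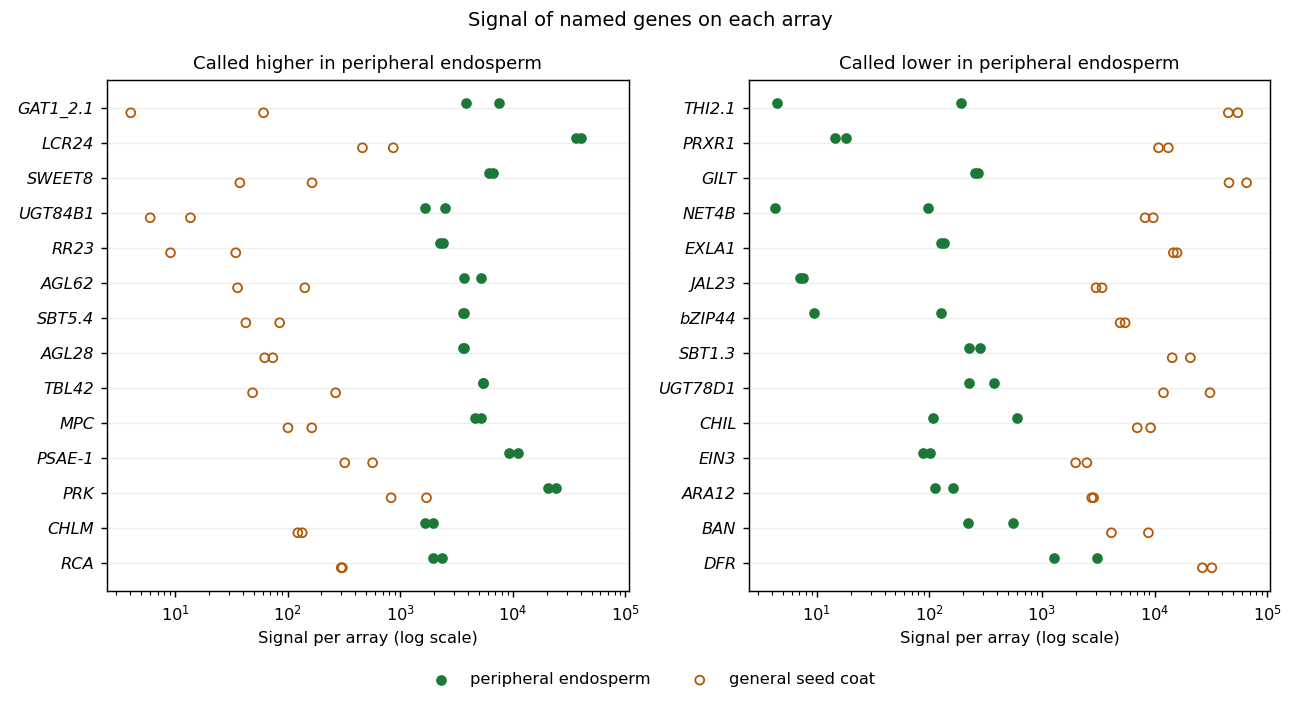
Signals on each array are plotted on a log scale for 14 genes called higher (left) and 14 called lower (right) in the peripheral endosperm, with filled green points for the 2 peripheral endosperm arrays and open orange points for the 2 general seed coat arrays. The genes were picked from called genes, so the lack of overlap between the groups follows from the choice. The spread between replicates is widest where a group lies at low signal. Examples are GAT1_2.1 at 4.05 and 61.1 in the general seed coat and THI2.1 at 4.39 and 193 in the peripheral endosperm.

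Flavonoid and integument genes were lower in the peripheral endosperm, but few of the listed members could be named. Of 23 listed flavonoid and proanthocyanidin genes 3 could be tested, and 2 were lower, against 14.3% of all genes. DFR differed by -3.85 (SE 0.42, adjusted p = 8.96e-07), from -4.46 to -3.23 with 1 array left out, and peripheral endosperm replicate 2 moved it most. BAN (anthocyanidin reductase), the enzyme that commits precursors to proanthocyanidins, had signals of 218 and 558 in the peripheral endosperm, against 4137 and 8810.0 in the general seed coat, and differed by -3.97 (SE 0.61, adjusted p = 4.53e-05), from -4.58 to -3.35, with the largest shift without peripheral endosperm replicate 1. UGT80B1, which glucosylates sterols and is known from seed coat flavonoid phenotypes, had 181 and 336 in the peripheral endosperm and 125 and 361 in the general seed coat, and its groups overlapped. Outside the list, UGT78D1, a flavonol rhamnosyltransferase, had 374 and 224 in the peripheral endosperm, against 31031 and 11995 in the general seed coat, a difference of -5.89 (SE 0.89) that ran from -6.57 to -5.20, with general seed coat replicate 2 the most influential. CHIL, a chalcone isomerase-like protein that aids flavonoid production, had 107 and 604 in the peripheral endosperm, against 9215 and 7008 in the general seed coat, a difference of -4.74 (SE 0.58) that ran from -5.82 to -3.66, set by peripheral endosperm replicate 1. HCT, an enzyme of lignin precursor synthesis, was lower by 2.45 (SE 0.51). It was the 1 gene called of 3 tested phenylpropanoid and lignin genes, whose median was -0.06. UGT78D1, CHIL and HCT were named as called genes, so their direction is no separate support.

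Of 20 listed integument and mucilage genes 2 were tested and both were lower, against 14.3% of all genes. INO, a YABBY factor needed for growth of the outer integument, had signals of 62.0 and 64.6 in the peripheral endosperm, against 523 and 763 in the general seed coat, and differed by -2.75 (SE 0.59, adjusted p = 0.00142). ARA12, a subtilisin-like protease that acts on mucilage release, had 163 and 112 in the peripheral endosperm, against 2874 and 2765 in the general seed coat, and differed by -4.06 (SE 0.63). DELTA-VPE, a vacuolar processing enzyme linked to cell death in the inner integument, had 125 and 93.9 in the peripheral endosperm, against 4862 and 7301 in the general seed coat, and differed by -5.38 (SE 0.61). In all 3 the peripheral endosperm arrays lay well below the general seed coat arrays. DELTA-VPE was not on this list and was named as a called gene, so its separation follows from the choice.

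Among 6 tested receptor-like kinases with a known function 5 were lower in the peripheral endosperm, against 14.3% of all genes, with a median of -3.87. CR4, a kinase of epidermal cell layers, had signals of 105 and 8.15 in the peripheral endosperm, against 2259 and 1707 in the general seed coat, and differed by -4.66 (SE 0.75, adjusted p = 8.41e-05), from -5.50 to -3.82, with peripheral endosperm replicate 2 the most influential. EMS1, known from anther cell fate, had 26.9 and 29.5 in the peripheral endosperm, against 1229 and 949 in the general seed coat (-4.12, SE 0.57). MOL1 (-4.23) and the cell wall sensing kinases FER (-3.62) and THE1 (-3.51) were lower too, although FER ran from -4.70 to -2.54 and was not called without general seed coat replicate 2 (adjusted p = 0.0562). GSO1, a receptor of the embryonic cuticle pathway, was the member that was not called, at 76.6 and 54.6 in the peripheral endosperm and 32.9 and 46.8 in the general seed coat. Among 12 tested RALF and CLE peptides, small secreted signals of which RALF peptides are ligands of FER and its relatives, 4 were lower, 2 higher (1 higher without general seed coat replicate 1) and 6 not called. Of these peptides 16.7% were thus higher and 33.3% lower, against 10.2% and 14.3% of all genes. RALFL24, the lowest, had 41.0 and 69.4 in the peripheral endosperm, against 2039 and 1634 in the general seed coat (-4.37). RALFL18, the highest, had 441 and 674 in the peripheral endosperm, against 63.2 and 13.4 in the general seed coat (3.06). EIN3, the master transcription factor of ethylene response, was lower by 4.13 (SE 0.48, adjusted p = 1.94e-06). YUC6, an enzyme of auxin synthesis, had 3.11 and 84.3 in the peripheral endosperm, against 555 and 883 in the general seed coat, and differed by -3.43 (SE 0.63), from -4.24 to -2.62, with peripheral endosperm replicate 1 moving it most.

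Several families of transporters and enzymes had called members in both directions, where 10.2% of all genes were higher and 14.3% lower. Among 9 tested SWEET and sucrose transporter genes, a set chosen by name that includes SWEETIE, SWEET8 was higher, while SWEET1 (-3.59), SWEET7 (-2.70) and SWEET2 (-1.98) were lower, and the median of 0.31 turned to -0.24 without general seed coat replicate 2 or peripheral endosperm replicate 1. In this set 11.1% were higher, near the share of all genes, and 33.3% lower. SWEET1, a glucose transporter, had 10.01 and 59.9 in the peripheral endosperm, against 677 and 855 in the general seed coat. The call for SWEET2 was lost when either peripheral endosperm array or general seed coat replicate 1 was left out. Among 21 serine carboxypeptidase-like genes 3 (14.3%) were higher, near the share of all genes, and 7 (33.3%) were lower. Their median of -0.67 was 0.01 without general seed coat replicate 2. Here scpl21 had 9365 and 8584 in the peripheral endosperm, against 115 and 241 in the general seed coat (5.46, SE 0.44), and scpl20 had 189 and 536 in the peripheral endosperm, against 12305 and 10425 in the general seed coat (-4.99, SE 0.65, or -5.66 without peripheral endosperm replicate 2). Of 32 UDP-glycosyltransferase genes 4 (12.5%) were higher and 7 (21.9%) lower, against 10.2% and 14.3% of all genes, and their median of -0.17 changed sign to 0.07 with arrays centred on their medians and to 0.02 with quantile normalization. UGT84B1, UGT87A2 (3.84) and UGT74D1 (3.33) were higher, and UGT78D1, UGT73B1 (-3.66) and UGT72B3 (-3.34) were lower; 4 were lower without general seed coat replicate 2. Of 5 tested subtilisin-like proteases, a set chosen by name that leaves out ARA12, SBT5.4 was called higher and SBT1.3 lower. That is 20% each way, against 10.2% and 14.3% of all genes. SBT5.4 had 3588 and 3685 in the peripheral endosperm, against 42.6 and 85.0 in the general seed coat (5.24, SE 0.65), and SBT1.3 had 225 and 283 in the peripheral endosperm, against 20769.5 and 14334 in the general seed coat (-5.91, SE 0.68).

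Families that act on the cell wall are set beside all genes, of which 10.2% were higher and 14.3% lower. The expansins lay near those shares. The trichome birefringence-like (TBL) proteins acetylate wall polysaccharides, and of 17 tested 3 were higher and 7 lower, with a median of -1.31, although 4 were lower without peripheral endosperm replicate 1. TBL42 had 5400.2 and 5394 in the peripheral endosperm, against 48.9 and 267 in the general seed coat, and was higher by 5.08 (SE 0.45), or by 4.16 without general seed coat replicate 1. TBL38 had 161 and 90.8 in the peripheral endosperm, against 5125 and 3632 in the general seed coat (-4.78, SE 0.69). Of 11 GH9 endoglucanases, which act on cellulose, 2 were higher and 5 lower (median -1.50), and 3 were lower without general seed coat replicate 1 or peripheral endosperm replicate 1. GH9A3 had 24.5 and 165 in the peripheral endosperm, against 2403 and 4668 in the general seed coat (-4.94, SE 0.55, or -5.81 without peripheral endosperm replicate 2). Of 13 expansins, proteins that loosen the wall, 1 was higher and 2 lower (1 lower without either general seed coat array or peripheral endosperm replicate 1), and 10 were not called, which is 7.7% higher and 15.4% lower. Of 5 cellulose synthase family genes 1 was higher and 1 lower, and the 3 tested XTH wall enzymes, XTH16 (-1.49), XTH26 (-0.05) and XTH19 (0.72), were not called. EXLA1 had signals of 134 and 127 in the peripheral endosperm, against 15823 and 14675 in the general seed coat, and its difference of -6.52 (SE 0.36, adjusted p = 2.14e-10) had replicates that lay close together. EXPA21 was higher by 2.12 (SE 0.44), with 1163 and 1006 in the peripheral endosperm, against 157 and 307 in the general seed coat. EXLA2 was lower by 2.52, a call lost in the same 3 cases and with no value added before the logarithm.

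Other groups had called members mainly in the lower direction, where over all genes 10.2% were higher and 14.3% lower. Of 13 IQ-domain proteins, which bind calmodulin, 7 were lower with a median of -1.96, and 4 were lower without general seed coat replicate 2. Of these, iqd32 had 106 and 27.2 in the peripheral endosperm, against 2678 and 1668 in the general seed coat (-4.50, SE 0.58, or -3.92 without peripheral endosperm replicate 2). Of 6 tubulin genes 4 were lower, with a median of -1.94, and 2 were lower without general seed coat replicate 1 or without peripheral endosperm replicate 2. TUB5 (-2.98), TUB1 (-2.35), TUB9 (-2.06) and TUB6 (-1.82) were the 4, all beta-tubulins, and TUB1 lost its call without general seed coat replicate 1 or peripheral endosperm replicate 2, and TUB6 in 9 of 16 alternatives. TUB9 had 679 and 579 in the peripheral endosperm, against 3013 and 2482 in the general seed coat. Of 8 aldehyde dehydrogenases 5 were lower and 1 higher, led by ALDH3F1 with 125 and 189 in the peripheral endosperm, against 3539.8 and 4135 in the general seed coat (-4.34, SE 0.63). The higher one, ALDH10A9 (1.27), did not pass under 5 alternatives, among them leaving out general seed coat replicate 1 or either peripheral endosperm array, and 3 were lower without general seed coat replicate 2 or peripheral endosperm replicate 2. Of 9 bZIP factors 5 were lower, with bZIP44 well below the other 4, which lay between -2.43 and -1.35, and leaving out any 1 of the 4 arrays gave 1 to 3 lower. Of 22 SEC, VPS and PRA1 proteins of membrane traffic 7 were lower with a median of -1.10, but 2 or 3 were lower when any 1 of the 4 arrays was left out and 3 with arrays centred on their medians.

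**Figure D4:**
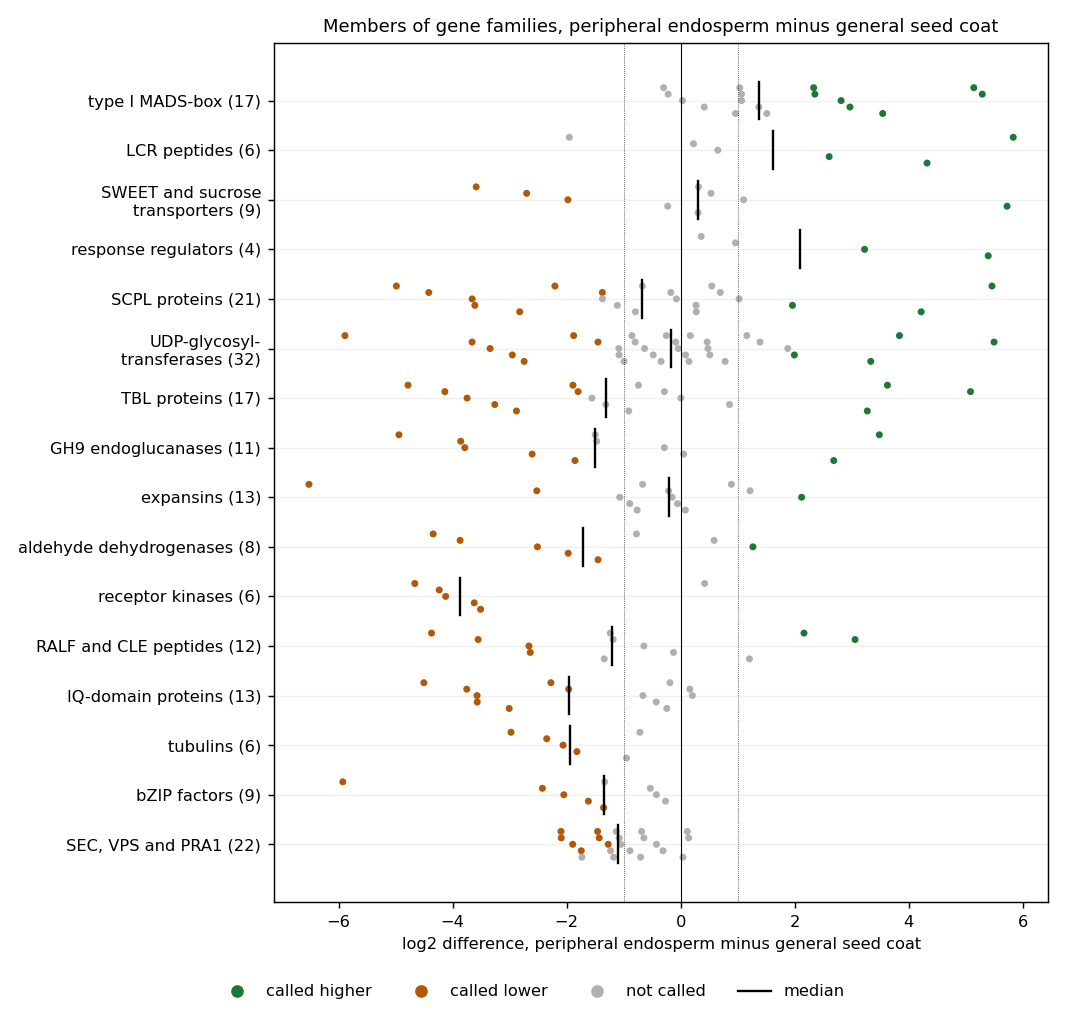
Each point is the log2 difference, peripheral endosperm minus general seed coat, of 1 tested member of 16 gene families, with the number of tested members in brackets, a black bar at the family's median and dotted lines at 2-fold. Type I MADS-box genes, LCR peptides and response regulators have called members on the right alone, receptor kinases, IQ-domain proteins, tubulins, bZIP factors and SEC, VPS and PRA1 proteins on the left alone, and the other families on both sides.

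Some genes tied to growth did not differ beyond the spread between replicates. The aurora kinase AUR1, which acts in mitosis, had 689.7 and 557 in the peripheral endosperm and 360.5 and 164 in the general seed coat, and its difference was 1.22 (95% interval -0.10 to 2.54, adjusted p = 0.174). AUR2 differed by 0.93 (-0.35 to 2.20) and PRL, which belongs to the MCM helicase of DNA replication, by -0.84 (-1.74 to 0.06). Only 484 probe sets (2.8%) had a 95% interval within 2-fold in both directions, so for most of the others an absence of difference was not shown. The brightest such genes were AT1G54410, which the gene table lists also as HIRD11, AT3G60245, AT5G56710 and AT1G52300. An interval within 2-fold still allows a small difference. AT3G60245 (0.55, adjusted p = 0.0170) and AT5G56710 (0.52, adjusted p = 0.0258) passed the limma test but lay under 2-fold. AT1G54410 had 70118 and 53587 in the peripheral endosperm and 88252 and 49853 in the general seed coat, a difference of -0.11 (-0.60 to 0.37).

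The same contrast of endosperm with seed coat was made at the chalazal pole with 4 other arrays. There 2006 probe sets (11.6%) were higher and 3429 (19.8%) lower in the chalazal endosperm than in the chalazal seed coat. Of the probe sets higher along the side, 644 were also higher at the chalazal pole, which is 33.7% of the first set and 32.1% of the second, and 133 (7%) were lower there. Of those lower along the side, 1297 were also lower at the chalazal pole, which is 49.7% of the first set and 37.8% of the second, and 64 (2.5%) were higher there. AGL62 and LCR24 were among those higher in both, by 5.71 and 5.14 at the chalazal pole. PRXR1 (-6.28), THI2.1 (-5.82), GILT (-5.14) and bZIP44 (-6.88) were lower there as well.

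The difference between both contrasts was tested as an interaction, and it was called higher along the side for 1506 probe sets (8.69%) and lower for 1237 (7.14%). The interaction was called in either direction for 675 (35.3%) of the 1910 probe sets higher in the peripheral endosperm. Of the 2611 lower it was called for 613 (23.5%). The interaction includes the difference by which these sets were chosen, which raises both shares, so they are no separate support. Several photosynthesis genes were among the 675. RCA had mean signals of 271 in the chalazal endosperm and 435 in the chalazal seed coat, a difference of -0.62, and its interaction was 3.31 (SE 0.69, adjusted p = 0.00264). TROL, at 753 in the chalazal endosperm and 2166 in the chalazal seed coat, had an interaction of 4.24 (SE 0.48, adjusted p = 1.43e-05), and CHLM one of 3.42 (SE 0.70, adjusted p = 0.00232). PSBW (2.81, adjusted p = 0.000353), PSAN (3.13, adjusted p = 0.0317) and CaS (3.28, adjusted p = 0.0108) were called too, but CaS not without peripheral endosperm replicate 1 or with no added value, and PSAN not under 11 of 19 alternatives. PRK was the exception among the Calvin cycle genes, with 11862 in the chalazal endosperm and 239.8 in the chalazal seed coat and an interaction of -1.32 (adjusted p = 0.104). Of the 69 chloroplast genome genes 12 were higher at the chalazal pole, where 11.9% of all genes were, with a median of 0.47. Their interaction was called higher for 12 and lower for none, against 7.89% higher and 6.83% lower over all genes.

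For some genes lower in the peripheral endosperm the difference at the chalazal pole was not called or was smaller. AT1G49800 had a mean of 32.9 in the peripheral endosperm and 9237 in the general seed coat, against 67.1 in the chalazal endosperm and 13.02 in the chalazal seed coat. Its interaction of -8.08 (SE 0.84, adjusted p = 5.92e-06) went with a difference of 7.57 between general and chalazal seed coat. EXLA1 had means of 4675 in the chalazal endosperm and 7011 in the chalazal seed coat, and its interaction was -5.91 (SE 0.51, adjusted p = 5.59e-07). NET4B (-6.31), scpl20 (-5.58), DELTA-VPE (-4.98) and SWEET1 (-4.84) were called in the same direction. The seed coat genes INO (-3.18, adjusted p = 0.0133) and DFR (-2.14, adjusted p = 0.0169) were called as well, where DFR was lower in the chalazal endosperm too (-1.70), but INO not under 3 of 19 alternatives, among them leaving out general seed coat replicate 2, and DFR not under 5, among them leaving out general seed coat replicate 1 or peripheral endosperm replicate 1. Mean signals of INO were 643 in the general and 67.7 in the chalazal seed coat, a difference of 2.73 (adjusted p = 0.00455). BAN, at 408 in the chalazal endosperm and 3603 in the chalazal seed coat, had an interaction of -0.93 (adjusted p = 0.504).

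**Figure D5:**
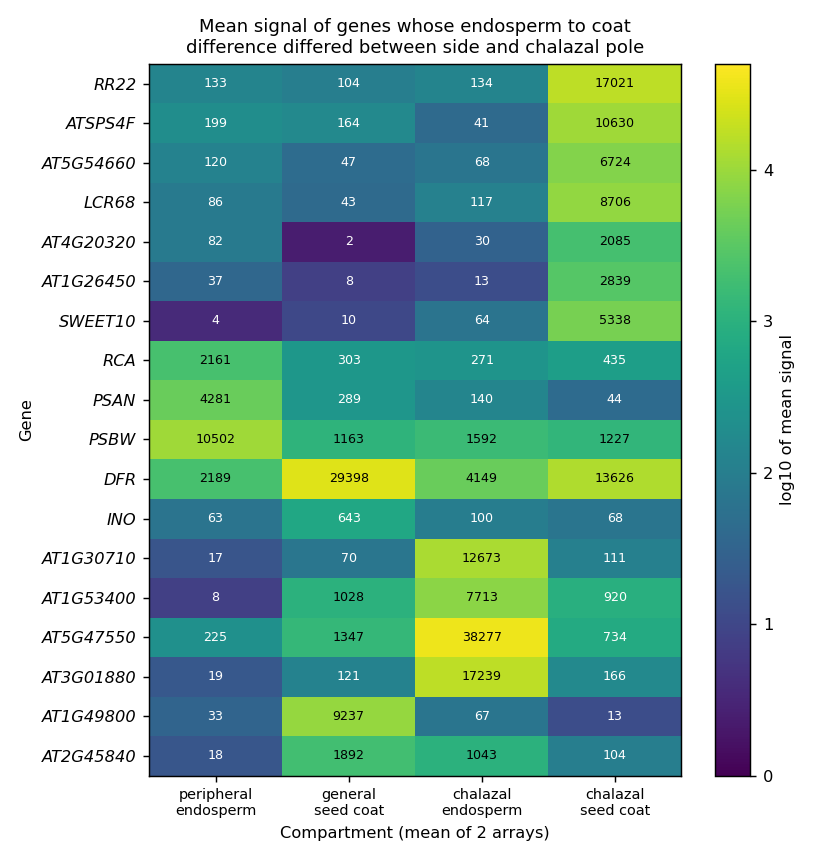
The number in each cell is the mean signal of 2 arrays in the peripheral endosperm, general seed coat, chalazal endosperm and chalazal seed coat, coloured by its log10, for 18 genes whose interaction was called. The upper genes are bright in the chalazal seed coat, as RR22 at 17021, the photosynthesis genes in the peripheral endosperm, as PSBW at 10502, DFR, INO and AT1G49800 in the general seed coat, and AT5G47550 and AT3G01880 in the chalazal endosperm, at 38277 and 17239.

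Neighbouring genes on a chromosome were compared without a test. Of the tested neighbours of a higher gene 13.2% were higher, against 10.3% of all genes in such pairs, and of the neighbours of a lower gene 17.8% were lower, against 15%. The run of 3 with the largest increases was AT5G58820, AT5G58830 and AT5G58840, higher by 5.54, 4.53 and 5.15, where AT5G58830 was higher by 5.44 without general seed coat replicate 2. AT5G58820 had signals of 9318 and 11717 in the peripheral endosperm, against 120.3 and 291 in the general seed coat. AT4G21620 (-5.88), AT4G21630 (-6.25) and AT4G21640 (-2.01) formed the run with the largest decreases, although AT4G21640 was called only without general seed coat replicate 2 among the cases with 1 array left out. AT4G21630 had 116 and 149.8 in the peripheral endosperm, against 13968 and 11594 in the general seed coat. Members of such runs can be similar copies, and cross-hybridization between their probe sets was not tested.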

How the data were processed

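The labels gave each array's group. The authors deposited 1 intensity per probe set and array on a linear scale, made with GCOS per the submitters' processing notes (version not given in the sources used here). With 2% trimmed from each end, the mean of an array was 500.04 to 500.07, so the deposited intensity values share 1 scale. Detection calls were not used here.

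Of 22810 probe sets 64 controls were left out. The test took the 17336 of 22746 probe sets that exceeded the 40th percentile of the array on both arrays of some group. Values became log2(intensity + 35.9), where 35.9 is the 25th percentile of all deposited intensities. A mean per group was fitted to all 14 arrays with limma 3.58.1 in R 4.3.3 (moderated, trended variances, 7 residual and 13.4 prior degrees of freedom), two-sided, with Benjamini-Hochberg adjustment over all tested probe sets. The script was tested on simulated data. Figures used matplotlib 3.10.9. In the platform annotation 13513 probe sets had 1 symbol, 503 had several and were not named, and 8730 had none, and 13436 matched the TAIR10.1 gene table, used for names and neighbours. Each gene is shown by its brightest probe set. Of 115 genes with several tested probe sets, 18 differed in call and 0 had opposite calls.

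The members and gene lists were chosen with earlier results of these data known, and further families after the annotation or the values were seen, so list counts are descriptions. Named genes were the 14 largest called changes each way, up to 4 called members of each list per direction, the 6 largest interactions each way, the 4 brightest even genes and a set of known markers, and, by a rule added after values were seen, the largest changes among genes with a symbol beyond the locus. Other members of a list are named beside its count. Same-numbered replicates of both groups did not deviate together (r = 0.043). Alternatives changed the added value, the filter, the scaling, the variance trend, the arrays fitted, the replicate block or left out 1 array. Sequences were not used here.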

Additional observations from a re-analysis of the deposited data

Results flagged for a closer look

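Every result here differed between the side of the seed and the chalazal pole by the interaction test in limma, that is (peripheral endosperm minus general seed coat) minus (chalazal endosperm minus chalazal seed coat). The interaction was positive for 1506 probe sets and negative for 1237. Groups of 2 arrays are too small for a test of single outlying samples.

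Among the positive values, several came with high signal in the chalazal seed coat and little signal in the peripheral endosperm or the general seed coat. RR22, a response regulator, had an interaction of 7.37 with means of 133 (peripheral endosperm) and 104 (general seed coat), against 134 (chalazal endosperm) and 17021 (chalazal seed coat). ATSPS4F, a sucrose phosphate synthase, had 7.34 with 10630.3 in the chalazal seed coat. SWEET10, a sugar transporter, had 5.59 with 5338 there, and LCR68, a cysteine-rich peptide, had 6.99 with 8706. AT5G54660 (7.11), AT4G20320 (6.72) and AT1G26450 (6.58) had the same pattern, with 6724, 2085 and 2839 in the chalazal seed coat. The photosynthesis genes RCA (3.31), PSAN (3.13) and PSBW (2.81) instead had their highest mean of the 4 compartments in the peripheral endosperm.

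Among the negative values, AT3G01880 (-7.95), AT5G47550 (-7.77), AT1G30710 (-7.43) and AT1G53400 (-7.43) were bright in the chalazal endosperm, at 17239, 38277, 12673 and 7713. AT1G49800 (-8.08), DFR (-2.14) and INO (-3.18) were brightest of the 4 compartments in the general seed coat. AT2G45840 (-8.35) had means of 17.8 (peripheral endosperm) and 1892 (general seed coat), against 1043 (chalazal endosperm) and 104 (chalazal seed coat), so its difference was called lower along the side and higher at the chalazal pole. Leaving out 1 array or changing another setting ended the interaction call of PSAN under 11 of 19 alternatives, of DFR under 5, of INO under 3 and of SWEET10 under 1, with no added value (adjusted p = 0.0612).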

How the results depend on the processing

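No called result turned its direction under any alternative run. For the peripheral endosperm minus the general seed coat, the count of higher probe sets was 1247 to 1482 when 1 array of these groups was left out, the count of lower ones 1824 to 1918, and the total 3112 to 3318. A group left with 1 array is then assumed to vary like the other groups. Under the other settings the total was 3773 with no added value and up to 4943 with the 4 arrays fitted alone. With the replicate number as a block 1903 were higher and 2597 lower, and 98.1% of the calls were kept; this pairing rests on numbers alone. For the chalazal endosperm minus the chalazal seed coat, the lower count was 2233 to 3372 with 1 array left out. For the interaction, leaving out 1 array gave 871 to 1878 higher, 809 to 1255 lower and 1719 to 3133 in all, and no added value gave 752 lower and 1781 in all; the cause was not tested. Of 187 named genes called in the main comparison, 143 kept their call in all 16 alternatives, and 36 lost it when 1 array was left out. Leaving out 1 array moved the difference of 51 of the 187 by over 1.5-fold. The number of arrays and signal near the bottom of the scale limit the precision.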
